A study of Mus musculus with 4 samples.

Results

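Pachytene spermatocytes that carried high levels of *Fabp9* transcript were examined in single-cell RNA-seq of wild-type mouse testes. A cell was taken as a member when it held at least 5 *Fabp9* UMIs per 10000 UMIs (unique molecular identifiers, each standing for 1 captured transcript) and at least 1 UMI of 3 or more of the 5 genes *Piwil1*, *Ldhc*, *Tbpl1*, *Tesmin* and *Mns1*. Of 14828 wild-type cells with more than 1000 detected genes and under 10% mitochondrial UMIs, 827 were members. They numbered 348 of 6334 cells in replicate 1 (5.49%, 95% exact binomial interval 4.95 to 6.08%) and 479 of 8494 cells in replicate 2 (5.64%, 5.16 to 6.15%). The members were chosen by measured values, namely the UMIs of these 6 genes, so every difference between members and other cells is given as a description in each library and no test was run. Intervals cover counting error only.

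The study compared wild-type and *Meioc* KO testes on postnatal day 15 (P15), with 2 biological replicates of each genotype on the C57BL/6N strain. *Meioc*-null pups lack MEIOC, a protein that germ cells need for meiotic prophase. Pups of both genotypes were also heterozygous for *Hspa2* tm1Dix, a null allele of a spermatocyte chaperone, and homozygous for a ROSA26-tdTomato reporter whose stop cassette was intact. Each library came from 1 testis of 1 pup, each batch held 1 littermate pair of the genotypes, and the interstitium was discarded during dissociation. At this age the first wave of spermatogenesis has only recently reached pachynema.

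Pachynema is the stage of meiotic prophase in which homologous chromosomes are fully synapsed along their length. In male cells the X and Y chromosomes stay largely unsynapsed and are silenced in a compartment called the sex body, a process termed meiotic sex chromosome inactivation. Pachytene spermatocytes are also known to turn on, under regulators such as A-MYB, genes of the piRNA pathway and many genes whose products are used only after meiosis, among them parts of the flagellum and acrosome and germ cell forms of metabolic enzymes. FABP9 is a lipid-binding protein of germ cells that is later found in the sperm head.

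All values below are given for replicate 1 and then replicate 2. Levels are UMIs summed over the cells of a group and divided by the group's total, given per 1000000 UMIs as CPM. Each transcript is counted at its 3′ end, so levels were not divided by gene length. The main comparison group, the other germ cells, held 4560 and 6592 wild-type cells that were not members and carried at least 3 UMIs of the germ cell genes *Ddx4* and *Dazl*. A closer group was the Psma8-high cells, 162 and 327 of those other germ cells with at least 2 UMIs of *Psma8*, a proteasome subunit of spermatocytes, at 2 or more per 10000 UMIs. That group was defined after the data were examined, because 2 *Psma8* UMIs alone also picked deeply sequenced cells of other stages. Background from free RNA was read in somatic cells, which held no *Ddx4* or *Dazl* UMI and at least 3 UMIs of Sertoli or peritubular myoid genes.

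Total UMIs ranged from 158291903 to 190455307 over the 4 libraries. Members were sequenced more deeply than the other germ cells, with a median of 37602 and 37022 UMIs per cell against 15352 and 14484.5. They held a median of 6232.5 and 5953 detected genes against 4540 and 4174.5. When each cell was thinned to 5000 UMIs, which left out 65 and 21 members, the medians were 2361 and 2304 genes in members and 2353.5 and 2254.5 in Psma8-high cells, so at equal depth the number of genes was close. The median mitochondrial share was lower in members, at 4.21% and 4.73% against 6.64% and 6.68%. Between 142 and 171 cell barcodes of each library occurred in another library, and 6 of them were members in each wild-type library. A doublet caller (Scrublet, set to the expected rate) marked 45 of the 348 and 112 of the 479 members, against 690 of all 6334 cells (10.9%) and 989 of all 8494 cells (11.6%), so that in replicate 2 members were marked more often than cells in general.

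The gate genes chose the members, so their levels follow from the rule and are given as a description. *Fabp9* stood at 2802 and 2554 CPM in members, at 150 and 165 in Psma8-high cells, at 23.8 and 23.0 in other germ cells and at 20.1 and 6.80 in somatic cells. The level in other germ cells was thus close to the free-RNA background in replicate 1. *Ldhc*, the germ cell subunit of lactate dehydrogenase, stood at 3004 and 1612 in members and at 64.3 and 62.3 in Psma8-high cells. Its level in other germ cells was 23.9 and 11.4, and in somatic cells 29.8 and 5.30, so that in replicate 1 the somatic background was the higher of these 2 values. *Piwil1*, which encodes the piRNA-binding protein MIWI, stood at 964 and 629 in members, 48.8 and 20.2 in Psma8-high cells and 25.4 and 8.90 in other germ cells. The levels of these 3 genes in members lay above those in both germ cell groups, which the rule itself favours.

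The other 3 gate genes separated members from their neighbours less. *Tesmin*, a metallothionein-like protein of meiotic germ cells, stood at 756 and 608 in members against 376 and 396 in Psma8-high cells. *Mns1*, a structural protein of the flagellum, stood at 471 and 341 against 108 and 95.1. *Tbpl1*, a TBP-related factor needed in spermatids, stood at 208 and 180 against 157 and 169, which leaves hardly any gap in replicate 2. After thinning to 5000 UMIs, *Fabp9* was found in 99.3% and 99.6% of members, 36.4% and 36.2% of Psma8-high cells and 7.56% and 3.76% of somatic cells. The same share for *Tesmin* was 96.8% and 93.4% of members and 70.8% and 79.2% of Psma8-high cells.

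**Figure D1:**
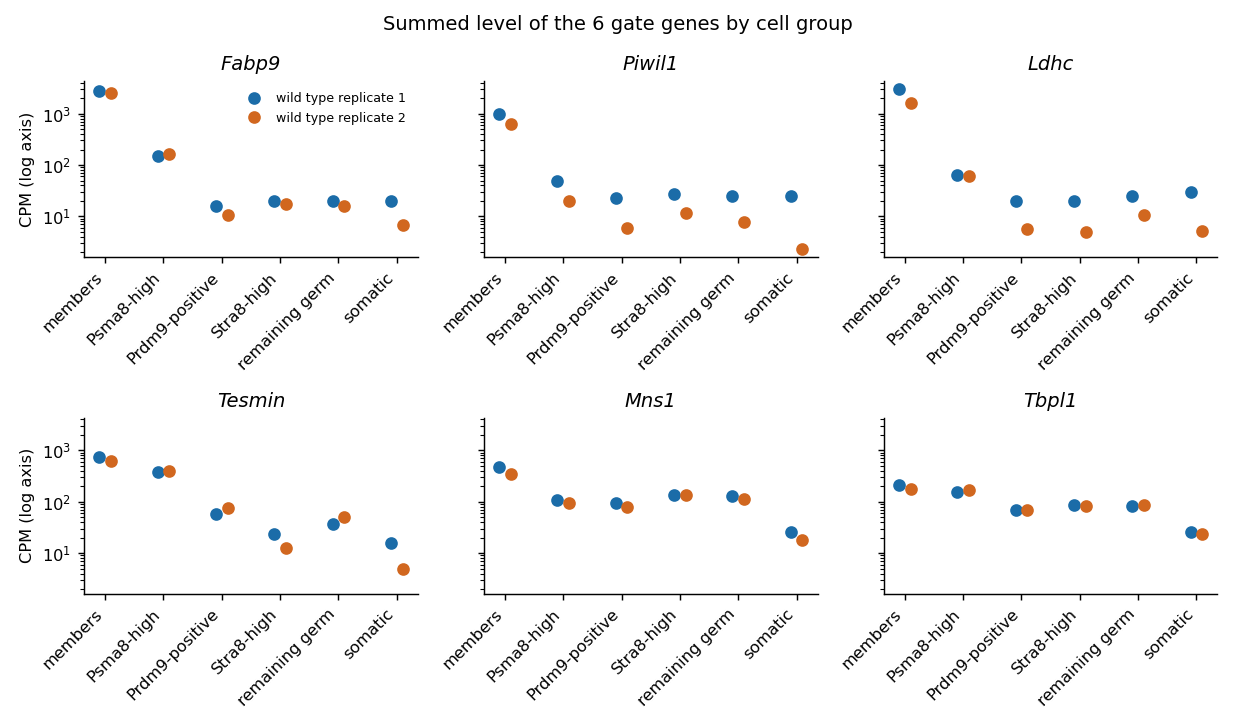
Levels of the 6 gate genes in CPM (log axis) in groups of wild-type cells, with 1 point for each library; the other germ cells outside the Psma8-positive group are split by *Prdm9*, then by *Stra8*, and the remaining cells. *Fabp9*, *Ldhc* and *Piwil1* stand far above every other group in members, while *Tesmin* and *Tbpl1* are already high in Psma8-high cells, at 376 and 396 and at 157 and 169 CPM.

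Most members sat well inside the gate. All 5 of the other genes were found in 279 of 348 members (80.2%) and 409 of 479 members (85.4%). *Fabp9* had a median of 26.1 and 22.9 per 10000 UMIs over members and reached 136 and 85.3. The lowest members had 5.01 and 5.09 per 10000, and 22 and 14 members lay between 5 and 6. Just outside, 14 and 32 cells that met the rule on the other genes had between 4 and 5, and the highest of them had 4.92 and 4.99. In all, 2245 and 1963 cells met the rule on the other genes without enough *Fabp9*, with a median *Fabp9* of 0, and 127 and 38 cells had enough *Fabp9* without the other genes, with a median of only 1797 and 2043.5 UMIs per cell. The germ cell rule of the comparison group would have left out 32 and 5 members, which were shallow as well, at a median of 2002.5 and 2386 UMIs.

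To show what lies before the gate genes, RefSeq promoter windows on GRCm38.p6 are printed for 4 gate genes and for *Ropn1l*, 1 of the 3 highest genes of the axoneme list. Each window runs 5′ to 3′ on the gene's strand from 250 bases before the annotated start to 30 bases after it. Capitals mark short words searched on either strand. The MYB words, which resemble sites of MYB factors, were CAACGG, its variant TAACGG, the word CAACTG and its variant TAACTG. The RFX word, which resembles part of the sites of RFX factors, was GTTGCC, and the E-box was CACGTG. *Piwil1* lies at chr5:128735996-128736275 on the plus strand, *Ldhc* at chr7:46861013-46861292 (plus), *Tesmin* at chr19:3388607-3388886 (plus), *Mns1* at chr9:72438279-72438558 (plus) and *Ropn1l* at chr15:31453660-31453939 (minus).
Piwil1: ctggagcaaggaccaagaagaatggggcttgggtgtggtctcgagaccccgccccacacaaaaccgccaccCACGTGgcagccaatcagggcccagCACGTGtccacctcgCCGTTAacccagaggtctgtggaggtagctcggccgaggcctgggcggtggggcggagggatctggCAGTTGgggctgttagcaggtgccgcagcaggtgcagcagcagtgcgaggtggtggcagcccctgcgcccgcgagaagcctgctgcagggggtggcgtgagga
Ldhc: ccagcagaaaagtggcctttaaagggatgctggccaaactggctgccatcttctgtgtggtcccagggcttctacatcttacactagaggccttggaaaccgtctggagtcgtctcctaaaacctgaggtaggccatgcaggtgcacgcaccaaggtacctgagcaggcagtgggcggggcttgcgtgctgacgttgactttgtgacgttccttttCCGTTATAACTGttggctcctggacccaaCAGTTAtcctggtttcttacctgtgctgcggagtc
Tesmin: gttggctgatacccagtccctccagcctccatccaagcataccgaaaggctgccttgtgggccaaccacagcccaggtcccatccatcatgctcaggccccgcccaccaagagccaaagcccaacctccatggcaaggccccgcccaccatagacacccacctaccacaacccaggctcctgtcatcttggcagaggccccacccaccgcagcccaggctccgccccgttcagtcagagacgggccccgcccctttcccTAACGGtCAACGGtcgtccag
Mns1: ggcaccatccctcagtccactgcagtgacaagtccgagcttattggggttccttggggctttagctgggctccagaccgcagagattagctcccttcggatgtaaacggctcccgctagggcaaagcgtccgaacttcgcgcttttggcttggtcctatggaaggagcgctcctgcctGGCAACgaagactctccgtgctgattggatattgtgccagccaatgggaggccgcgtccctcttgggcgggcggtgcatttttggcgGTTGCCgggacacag
Ropn1l: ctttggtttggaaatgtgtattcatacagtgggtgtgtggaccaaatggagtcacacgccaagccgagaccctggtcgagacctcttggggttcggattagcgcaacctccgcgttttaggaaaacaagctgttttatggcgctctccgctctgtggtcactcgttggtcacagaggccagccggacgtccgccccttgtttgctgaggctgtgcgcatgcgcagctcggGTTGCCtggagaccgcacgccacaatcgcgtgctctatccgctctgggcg
MYB words began 139 and 73 bases before the *Piwil1* start, beside E-boxes at 179 and 154 bases. In *Ldhc* 3 MYB words began 34, 28 and 5 bases before the start, and the first 2 of them adjoin. The *Tesmin* window held its MYB words at positions 10 and 17 of the transcript. *Mns1* held RFX words 72 bases before the start and at position 16, and *Ropn1l* held 1 at 20 bases before the start. For *Ldhc* and *Tesmin* the table lists 2 windows each, of which the first is shown. *Tbpl1* and *Meig1* (first of 3 windows) held none of these words. The words are matches of letters and were not tested as binding sites.

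Over all autosomal protein-coding genes compared, the MYB words lay in 38.3% of the promoters of genes that were higher in members (472 of 1231 windows of 300 bases), in 25.4% of those called in neither direction (1078 of 4243) and in 20.0% of those that were lower (365 of 1828). Among all 27025 promoters the share was 28.2%. The RFX word lay in 21.1%, 12.5% and 10.8% of the same 3 sets and in 12.7% of all promoters. It lay in 15 of the 32 axoneme genes with a window (46.9%). The E-box lay in 10.1%, 11.3% and 12.2% of the 3 sets and in 7.24% of all promoters. Of the 17 piRNA pathway genes with a window, 7 held it (41.2%). Median GC content differed too, at 59.7%, 61.7% and 63.7%, and its part in these shares was not tested.

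Across genes, 9596 reached 10 CPM in members or in the other germ cells. A gene was called higher or lower when its level with 1 added differed at least 2-fold in both libraries. A gene that reached 10 CPM only in members was compared through that level, so it could not be called lower. Of 770 such protein-coding genes in this comparison, 646 were called higher. A listed gene low in both groups dropped out. Against the other germ cells, 1686 genes were higher (17.6% of those compared) and 2627 were lower (27.4%). The median log2 ratio over all compared genes was −0.32 and −0.23. Under TMM scaling, which sets a trimmed mean ratio to 0, that median moved to 0.09 and 0.10 and the calls became 2240 higher and 2020 lower, so the share of higher genes among the calls went from 39.1% to 52.6%. No called gene took the other direction, which a shift of this size could not bring about.

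Against all Psma8-positive cells, taken with 2 UMIs of *Psma8* at any depth, 1472 of 9508 genes were higher (15.5%) and 2348 were lower (24.7%). The share of higher genes among those calls went from 38.5% to 55.3% under TMM scaling. Against Psma8-high cells, 1084 of 8451 genes were higher (12.8%) and 790 were lower (9.35%), with a median log2 ratio of −0.14 and −0.05. TMM scaling took these counts to 1343 and 532 and the share of higher genes from 57.8% to 71.6%. The count of lower genes was set by replicate 2, since replicate 1 alone gave 1560 and replicate 2 alone gave 788. The Psma8-high cells are part of the other germ cells and all comparisons share the same members, so their counts are set side by side only.

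The genes with the highest ratios against other germ cells stood at a few CPM in those cells. *Rbakdn*, a long noncoding RNA on chromosome 5, stood at 731 and 372 CPM in members against 4.75 and 1.70, a log2 ratio of 6.99 and 7.11, and it stood at 5.03 and 1.38 in somatic cells. *Elfn2*, a leucine-rich repeat membrane protein, stood at 253 and 261 against 1.32 and 1.18, with 4.02 and 4.26 in somatic cells. *Ldhal6b*, a lactate dehydrogenase A-like gene, stood at 574 and 368 against 5.22 and 3.05, with 5.23 and 1.497 in somatic cells. In replicate 1 the somatic level was above that in other germ cells for *Rbakdn*, *Elfn2*, *Ldhal6b*, *Fbp1*, *4922502D21Rik*, *Gm50166*, *Spag17* and *Ccdc192*, and in replicate 2 for *Elfn2*, *Gm50166* and *Ccdc192*. The part of free RNA in these ratios was not tested. *Fbp1*, the gluconeogenic enzyme fructose-bisphosphatase, stood at 207 and 112 against 1.11 and 0.332. *Crisp2*, a cysteine-rich secretory protein of the acrosome and sperm tail, stood at 470 and 296 against 3.99 and 2.60. *Dkkl1*, an acrosomal glycoprotein, stood at 641 and 448 against 6.95 and 4.87. *Spag17*, a central pair protein of the axoneme, stood at 227 and 190 against 1.90 and 0.939. *Cetn1*, a centrin of male germ cells, stood at 462 and 308 against 5.23 and 3.41. The other 4 of the 12 highest were *4922502D21Rik*, *Gm50166*, *1700012B09Rik* and *Ccdc192*.

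The lowest ratios belonged to spermatogonial and early meiotic genes and to X-linked genes. *Crabp1*, a retinoic acid-binding protein of spermatogonia, stood at 11.9 and 17.0 in members against 242 and 260, a log2 ratio of −4.23 and −3.85. *Stra8*, which acts at meiotic entry, stood at 24.5 and 28.2 against 455 and 389. *Kit*, the receptor of differentiating spermatogonia, stood at 5.76 and 9.29 against 116 and 126. The cell cycle genes *Ccnd1* (8.94 and 12.3 against 188 and 156) and *Cdkn2a* (16.5 and 19.7 against 251 and 242) were lower to a like degree. Psma8-high cells shared much of this. Their levels were 49.2 and 31.8 for *Crabp1*, 22.3 and 18.3 for *Kit*, 31.1 and 14.9 for *Ccnd1* and 64.3 and 36.3 for *Cdkn2a*. None of these genes was called lower in members than in Psma8-high cells, whereas *Stra8* (195 and 75.6 there) was. The other 5 of the 10 lowest, *Usp26*, *Nxf2*, *Taf1*, *Tex11* and *1700013H16Rik*, lie on the X chromosome.

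Set against Psma8-high cells, the leading genes were *Rbakdn* (log2 ratio 7.14 and 6.52), *Fbp1*, *Gm21269*, *Catsperz*, *Gm50166*, *Ggnbp1*, *Prok2* and *Tcp11*. *Catsperz*, a subunit of the CatSper calcium channel of sperm, stood at 198 and 112 CPM in members against 2.10 and 1.02. *Tcp11*, a gene of sperm function, stood at 227 and 123 against 4.20 and 2.85. Of the 8 lowest, 7 (*Pet2*, *Fmr1*, *Thoc2*, *Usp26*, *Usp9x*, *Taf7l* and *Sms*) were X-linked and *Eif2s3y* was Y-linked. *Fmr1*, an RNA-binding protein, stood at 14.3 and 24.4 against 292 and 301.

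Of 132 lincRNAs compared with other germ cells, 85 were higher (64.4%), and of 97 antisense transcripts 51 were higher (52.6%). Of 70 processed transcripts, 17 were higher (24.3%), and of 9258 protein-coding genes 1518 were higher (16.4%). Most of the higher noncoding genes reached 10 CPM only in members. Among genes that reached it in other germ cells, 10 of 53 lincRNAs (18.9%), 11 of 47 antisense transcripts (23.4%), 3 of 50 processed transcripts (6.00%) and 872 of 8488 protein-coding genes (10.3%) were higher. Noncoding transcripts made up 2.31% and 2.11% of UMIs in members, 2.31% and 2.16% in Psma8-high cells and 2.04% and 1.87% in other germ cells.

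The labelled stage was checked with 10 pachytene genes that the gate did not use. Of these, 6 could be compared and all 6 were higher than in other germ cells. Of the 6, 5 were higher than in Psma8-high cells. Over all genes 17.6% and 12.8% were higher in these comparisons. *Hspa2*, the spermatocyte chaperone of which these mice carry 1 null allele, stood at 1164 and 973 against 375 and 394 in Psma8-high cells and 58.2 and 65.2 in other germ cells. *Hist1h1t*, the testis linker histone, stood at 192 and 163 against 32.4 and 38.3 in Psma8-high cells. *Mybl1*, which encodes A-MYB, stood at 161 and 169 against 111 and 141 in Psma8-high cells, a difference under the fold. The remaining 4, *Ccna1*, *Pou5f2*, *Calr3* and *Spag6*, stayed under 10 CPM in every group compared. *Ccna1*, the cyclin of later spermatocytes, stood at 2.91 and 1.65 in members. Of 16 genes of spermatid packaging and late spermiogenesis, 1 could be compared. It was *Odf2*, an outer dense fibre gene, which was higher at 380 and 289 against 79.7 and 75.6 in other germ cells, while the other 15 stayed under 10 CPM in both groups. Of the 6 pachytene genes, 2 (*Crisp2* and *Pgk2*) reached 10 CPM in members but not in other germ cells. Their part of the count describes the members and does not bear on the label. Against Psma8-high cells the same held for *Pgk2*, 1 of the 5 that were higher.

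Of the 37 genes of the axoneme and flagellum, 29 could be compared and all 29 were higher in members than in other germ cells, with a median log2 ratio of 3.93 and 3.43, and 25 of the 29 were higher than in Psma8-high cells. Against other germ cells, 21 of the 29 reached 10 CPM only in members and so could not be called lower, and all 21 were higher. The other 8 reached it in other germ cells too, and these 8 were higher as well. Against Psma8-high cells 15 of the 29 reached it only in members and all 15 were higher, and of the other 14, 10 were higher. Among all compared genes 17.6% were higher than in other germ cells and 12.8% higher than in Psma8-high cells. Without the cells marked as doublets 28 of 29 were higher than in other germ cells. *Meig1*, which acts in assembly of the sperm tail, stood at 3106 and 2758 CPM in members against 419 and 485 in Psma8-high cells and 51.8 and 61.5 in other germ cells. *Rsph1*, a radial spoke head protein, stood at 3004 and 2532 against 806 and 891 in Psma8-high cells. Both were thus among the most abundant of the genes described here, and both were already present in Psma8-high cells. *Ropn1l*, a radial spoke and fibrous sheath protein, stood at 1242 and 923 against 79.4 and 92.3. *Dnah8*, a heavy chain of outer arm dynein, stood at 548 and 457 against 60.1 and 59.5. *Tekt1*, a tektin of the doublet microtubules, stood at 230 and 160 against 7.15 and 6.31. The 8 genes of the list too low to be compared included *Akap3* and *Akap4*, which build the fibrous sheath.

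Of the 26 acrosome genes, 16 could be compared. Of these, 14 were higher than in other germ cells and none was lower, beside 17.6% and 27.4% over all genes. Of the 16, 11 reached 10 CPM only in members and could not be called lower, and all 11 were higher. Of the other 5, 3 were higher. Against Psma8-high cells 10 of 16 were higher, beside 12.8% over all genes. Of these 10 higher genes, 6 reached 10 CPM only in members. Of the 10 genes that reached it in Psma8-high cells, 4 were higher. *Clgn*, which encodes the chaperone calmegin, stood at 866 and 685 against 162 and 159 in Psma8-high cells. *Spink2*, an acrosomal protease inhibitor, stood at 297 and 171 against 7.57 and 6.11. *Adam2*, a sperm surface protein, stood at 213 and 152 against 21.02 and 18.5. *Acr*, the protease acrosin, was lower in level but followed the same order, at 56.9 and 36.2 against 1.26 and 0.815.

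**Figure D2:**
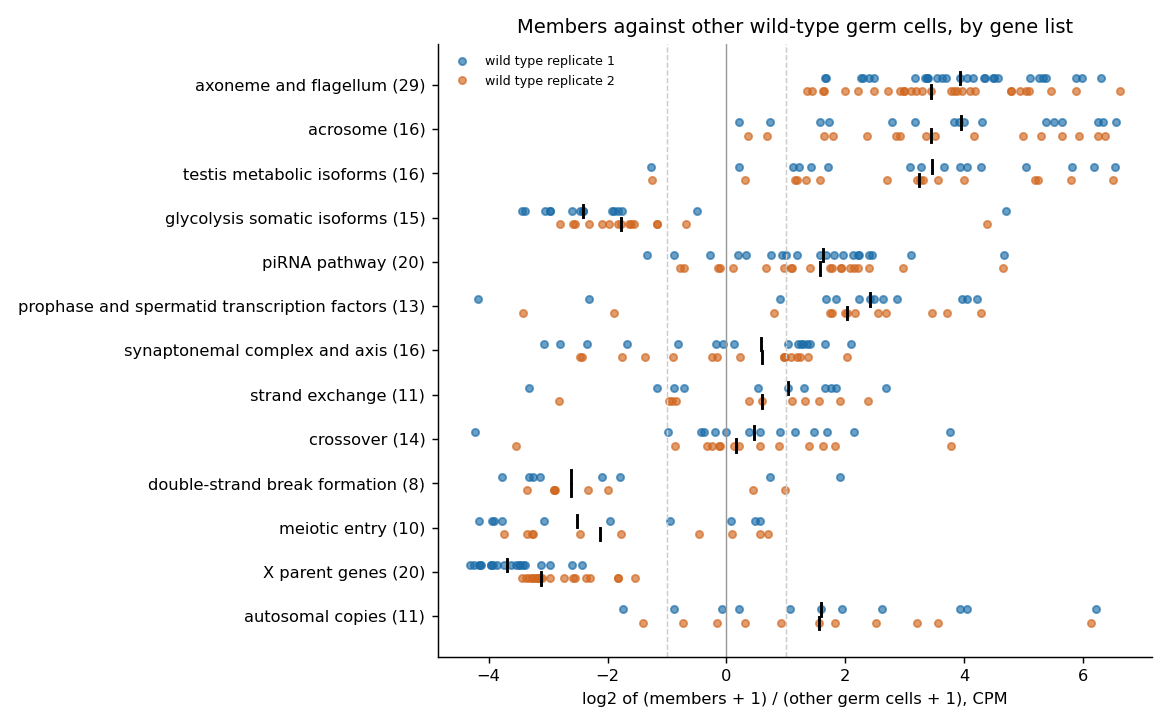
Log2 ratio of members to other wild-type germ cells, from CPM with 1 added, for the genes of 13 lists; each point is 1 gene in 1 library, black bars are medians, dashed lines mark the 2-fold limits and the number after each name counts the genes compared. All 29 axoneme genes that could be compared, 21 of them through their level in members alone, lie to the right of the upper limit. All 20 listed X-linked genes lie to the left of the lower one, as did 318 of the 329 genes compared on the whole X chromosome.

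A list of 20 metabolic genes held germ cell forms of enzymes and also *Pdhb*, *Sucla2*, *Tpi1* and *Hk1*. Of these 20, 16 were compared and 14 were higher than in other germ cells, beside 17.6% over all genes. The gene *Hk1* was lower, a call that was lost under TMM scaling. Of the 16, 5 reached 10 CPM only in members and could not be called lower, and all 5 were higher. Of the other 11, 9 were higher. *Cox8c*, a testis subunit of cytochrome c oxidase, stood at 2139 and 1691 against 156 and 182 in Psma8-high cells and 37.1 and 43.8 in other germ cells. *Cyct*, the testis cytochrome c, stood at 710 and 623 against 85.3 and 91.2 in Psma8-high cells. *Slc2a3*, the glucose transporter GLUT3, stood at 511 and 268 against 33.2 and 27.1. The list gene *Ldhal6b* stood at 574 and 368 in members. The glycolytic genes *Pgam2* and *Pgk2* were lower in level and differed between the libraries. *Pgam2*, a phosphoglycerate mutase of muscle and testis, stood at 180 and 72.3 against 1.68 and 0.204. *Pgk2*, the germ cell phosphoglycerate kinase, reached only 17.3 and 9.29, against 0 and 0.611.

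A list of somatic metabolic genes went the other way. Besides glycolytic genes it held the mitochondrial genes *Pdha1*, *Cycs*, *Cox6b1*, *Slc25a4* and *Slc25a5*. Of the list, *Pgk1*, *Pdha1* and *Slc25a5* are X-linked. Of 15 compared, 13 were lower than in other germ cells and 1 was higher, although only 1 of 13 was lower than in Psma8-high cells. Over all genes 27.4% and 9.35% were lower in these comparisons. *Gapdh* stood at 76.3 and 112 in members, 173 and 95.9 in Psma8-high cells and 638 and 558 in other germ cells. The exception was *Ldha*, the somatic lactate dehydrogenase subunit, which stood at 397 and 224 in members against 11.3 and 4.68 in Psma8-high cells and 14.3 and 9.85 in other germ cells.

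In the piRNA pathway 12 of 20 compared genes were higher than in other germ cells and none was lower. Over all genes 17.6% were higher and 27.4% lower. Against Psma8-high cells 9 were higher and 1 lower, beside 12.8% and 9.35% over all genes. Of the 12, 1 reached 10 CPM only in members, and of the 9, 2 did, *Tdrd6* among them. *Tdrd6*, a tudor protein of the chromatoid body, stood at 52.0 and 37.2 against 2.94 and 1.22 in Psma8-high cells. *Tdrd5*, another tudor protein, stood at 233 and 206 against 57.2 and 62.3. *Tdrd1* stood at 364 and 294 against 65.6 and 51.9. *Piwil2*, which encodes MILI and acts before pachynema as well, differed little, at 391 and 389 against 307 and 291. The RNA helicase gene *Ddx4*, which was used to define the other germ cells but not the members, stood at 965 and 1008 against 378 and 396.

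Of 13 transcription factors of prophase and spermatids that were compared, 10 were higher than in other germ cells and 2 were lower. Over all genes these shares were 17.6% and 27.4%. Against Psma8-high cells 3 were higher and 2 lower, beside 12.8% and 9.35% over all genes. In each comparison 1 of the higher genes reached 10 CPM only in members, and against Psma8-high cells it was *Rfx4*. *Hsf5*, a heat shock factor of spermatocytes, stood at 297 and 291 against 128 and 133 in Psma8-high cells and 18.1 and 21.4 in other germ cells. *Crem*, a regulator of spermatid genes, stood at 129 and 124 against 34.9 and 36.0 in Psma8-high cells. *Rfx4*, an RFX factor, stood at 30.2 and 24.4 against 2.52 and 1.83. *Rfx2*, which drives ciliary genes in spermatids, stood at 86.9 and 65.6 against 47.9 and 32.6, under the fold. The 2 lower genes were *Taf7l*, which is X-linked, and *Taf4b*, both subunits of germ cell TFIID.

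Genes of the chromosome axes and of recombination were divided. Of 16 compared genes of the synaptonemal complex and axis, 5 were higher than in other germ cells and 4 were lower. Over all genes these shares were 17.6% and 27.4%. Of 15 compared with Psma8-high cells, 1 was higher and 2 were lower, near the shares over all genes (12.8% higher and 9.35% lower). *Sycp1*, the transverse filament of the complex, stood at 2310 and 3194 in members, 2955 and 4149 in Psma8-high cells and 962 and 1500 in other germ cells. *Sycp3*, an axis protein, stood at 2108 and 2724 in members and 3800 and 4726 in Psma8-high cells. Both stayed abundant in members and were highest in Psma8-high cells. *Rad21l*, a meiotic cohesin, was lower in members at 1.94 and 3.11 against 15.6 and 18.3 in Psma8-high cells. With TMM scaling 8 genes of this list were higher and 4 lower than in other germ cells.

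Double-strand break genes were mostly lower, with 6 of 8 compared genes lower than in other germ cells and none higher. *Prdm9*, the methyltransferase that places the breaks, stood at 3.24 and 4.28 against 57.4 and 53.0. *Spo11*, which cuts the DNA, did not share this pattern, at 69.0 and 53.5 against 17.7 and 26.4. Of 6 break genes compared with Psma8-high cells, 3 were lower and none was higher. Over all genes 17.6% were higher and 27.4% lower than in other germ cells, and 12.8% higher and 9.35% lower than in Psma8-high cells. Of 11 strand exchange genes, 5 were higher and 1 was lower than in other germ cells. Against Psma8-high cells 1 was higher and 3 were lower. *Psmc3ip*, a cofactor of the recombinases, was higher than in both, at 540 and 465 in members, 196 and 204 in Psma8-high cells and 83.6 and 88.9 in other germ cells. The 3 genes lower than in Psma8-high cells were *Rad51ap2*, *Dmc1* and *Tex15*. *Rad51ap2* stood at 105 and 168 in members and 476 and 549 in Psma8-high cells, and *Dmc1*, the meiotic recombinase, at 39.2 and 53.3 against 117 and 112. *Tex15*, a protein needed for break repair and silencing, stood at 71.1 and 114 against 337 and 270.

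Crossover genes included some of the few recombination genes that were higher in members than in Psma8-high cells. Of 13 compared, 3 were higher and 1, the X-linked *Tex11*, was lower, beside 12.8% and 9.35% over all genes. These counts are few and are not read as a trait of the list. *Cntd1*, which acts in the designation of crossovers, stood at 356 and 371 against 148 and 158 in Psma8-high cells and 25.2 and 26.3 in other germ cells. *Mlh3*, a subunit of the MutL complex at crossover sites, stood at 102 and 99.6 against 38.7 and 37.7. *Ccnb1ip1*, which encodes HEI10, stood at 91.9 and 85.9 against 41.6 and 41.8. Among 12 sex body and DNA damage response genes compared with other germ cells, 2 were higher and 2 were lower. *H2afx* (662 and 643 against 125 and 134) and *Mdc1* (268 and 273 against 86.8 and 97.4) were higher. *Brca1* and the X-linked *Scml2* were lower. Against Psma8-high cells none of the 12 was higher and 1 was lower. The 13 listed genes summed to 2313 and 2424 CPM in members and to 2437.5 and 2545 in Psma8-high cells.

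Meiotic entry genes were mostly lower, whereas division genes were divided. Of 10 meiotic entry genes 6 were lower than in other germ cells and none higher. *Meioc* itself was not called, at 366 and 412 in members and 261 and 254 in other germ cells. Its partner genes *Ythdc2* (138 and 160 against 131 and 150) and *Rbm46* (347 and 363 against 234 and 247) were not called either. Of 17 cell cycle genes of the meiotic divisions, 6 were higher and 7 were lower than in other germ cells. *Nek2*, a centrosomal kinase, was higher at 205 and 189 against 63.9 and 61.2, and *Ccnb1*, a mitotic cyclin, was lower at 45.4 and 46.2 against 164 and 142. Of 11 histone genes, 3 were higher and 2 were lower, with *Hist1h1a* at 33.6 and 49.5 against 423 and 494. Of 14 chaperones, 4 were higher and 2 were lower. Over all compared genes 17.6% were higher and 27.4% lower, and over autosomal genes 18.2% and 24.9%. The counts of lower sex body genes, histones and chaperones are too few to be told apart from these shares. *Hspa5*, the chaperone of the endoplasmic reticulum, stood at 1051 and 1273 in members and 3788 and 3908 in Psma8-high cells.

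Spermatogonial markers were mostly low, with 1 exception, whereas most early spermatocyte genes were higher than in other germ cells. Of 7 genes of differentiating spermatogonia compared, 5 were lower and none was higher than in other germ cells. Among 3 genes of undifferentiated spermatogonia that were compared, *Id4*, a helix-loop-helix inhibitor, was higher in members, at 193 and 184 against 13.6 and 11.96, while the other 2 were lower. Of 6 differentiating spermatogonia genes compared with Psma8-high cells, 2 were lower and none was higher. Over all genes 17.6% were higher and 27.4% lower than in other germ cells, and 12.8% higher and 9.35% lower than in Psma8-high cells. Of 8 early spermatocyte genes, 5 were higher and 1 was lower than in other germ cells. Against Psma8-high cells none was higher and 3 were lower. All 5 general germ cell genes were compared, 3 of them were higher than in other germ cells and none was lower. These 5 include *Ddx4* and *Dazl*, whose UMIs chose the other germ cells. The early spermatocyte list likewise includes *Psma8*, which chose the Psma8-high cells. Their part of these counts depends on that choice.

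The summed Sertoli and myoid markers in members lay below their levels in other germ cells and in somatic cells, but in replicate 2 not below those in Psma8-high cells. The summed level of the 6 Sertoli genes was 71.8 and 84.7 CPM in members, against 127 and 47.5 in Psma8-high cells, 365 and 277 in other germ cells and 1331 and 1350.4 in somatic cells. The 5 peritubular myoid genes summed to 38.5 and 145 in members, 156 and 18.7 in Psma8-high cells, 212 and 205 in other germ cells and 13633 and 11611 in somatic cells, so the members of replicate 2 carried more of them than those of replicate 1. Of 6 Leydig and 5 endothelial genes 1 each could be compared and was lower, and none of the 6 macrophage genes reached 10 CPM. Of the 4 myoid genes compared with other germ cells, none was called lower, also under TMM scaling, and all 4 were lower after removal of the cells marked as doublets. The part of somatic RNA in the other results was not tested.

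Among chromosomes, the X and Y had the largest shares of lower genes. X-linked genes supplied 0.230% and 0.377% of the UMIs of members, against 1.65% and 1.44% in Psma8-high cells, 2.22% and 2.16% in all other germ cells and 3.55% and 3.65% in somatic cells. Without the members marked as doublets the share was 0.176% and 0.238%. Of 329 X-linked genes compared with other germ cells, 318 were lower (96.7%) and 1 was higher, with a median log2 ratio of −3.36 and −2.73. On the 19 autosomes the medians lay between −0.376 and −0.0459 in replicate 1 and between −0.303 and −0.0120 in replicate 2, and 18.9 to 30.7% of the genes of an autosome were lower. Against Psma8-high cells, 240 of 261 X-linked genes were lower (92.0%) and 1 was higher. All 8 Y-linked genes compared were lower than in other germ cells.

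The difference could be read in single cells. Among cells with at least 5000 UMIs, the X-linked share had a median of 0.176% and 0.234% over members, with 10th and 90th percentiles of 0.0741 and 0.512% in replicate 1 and 0.0763 and 0.832% in replicate 2. A share under 1% was found in 275 of 283 members (97.2%) and 425 of 458 members (92.8%). Psma8-high cells were mixed, with 45 of 154 (29.2%) and 120 of 318 (37.7%) under 1%. Members under 5000 UMIs had a summed share of 0.862% and 0.589%, higher than that of all members.

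**Figure D3:**
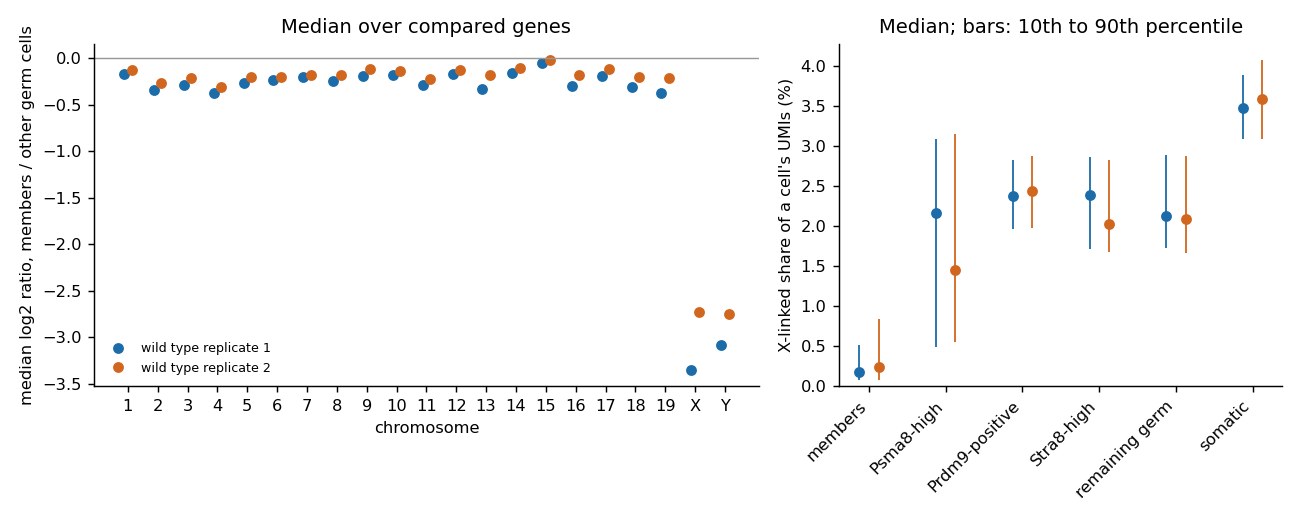
Left, the median log2 ratio of members to other wild-type germ cells over the genes of each chromosome, with 1 point for each library. Right, the X-linked share of each cell's UMIs, as the median with bars from the 10th to the 90th percentile over cells with at least 5000 UMIs; members have medians of 0.176% and 0.234%, below every other group, and the bars of Psma8-high cells are the widest among germ cells.

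A few sex-linked genes departed from the rest. *Tsga8*, a testis-specific gene, was the 1 X-linked gene that was higher in members, at 33.6 and 25.2 CPM against 0.928 and 0.889 in other germ cells. *Ndufa1*, a subunit of respiratory complex I, had the highest level of the X-linked genes in members, at 284 and 418, against 328 and 460 in other germ cells and 744 and 918 in Psma8-high cells. *Prdx4*, a peroxiredoxin, followed at 122 and 162 against 350 and 291. Others that were not called lower than in other germ cells included *Fmr1nb*, *Bgn*, *Nxt2*, *Nbdy*, *Magea8*, *Magea5* and *Ap1s2*. Against Psma8-high cells all of these but *Bgn* were called lower, as was *Ndufa1*. *Bgn*, which stood at 657 and 506 CPM in somatic cells, was not compared there. Among Y-linked genes, the ubiquitin protease gene *Usp9y* had log2 ratios to Psma8-high cells of −4.54 and −3.91, and the zinc finger genes *Zfy1* and *Zfy2* were lower as well. *Zfy1* stood at 3.303 and 5.25 against 77.3 and 78.8 in Psma8-high cells and 16.6 and 24.1 in other germ cells, and *Zfy2* at 4.99 and 6.42 against 98.8 and 104.

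Several housekeeping genes of the X chromosome have autosomal copies that are used in male germ cells. Of 22 listed X-linked genes, 20 were compared and all 20 were lower than in other germ cells. Only 11 of the 22 are paired with a copy below. The count lies near the share over the whole X chromosome, where 318 of 329 compared genes were lower (96.7%). Of 11 listed autosomal genes compared, 6 were higher and 1, *Hmgb1*, was lower, and 2 of the 6 reached 10 CPM only in members. *Hmgb1* is in none of the pairs below, and no copy in a pair was called lower. In 11 pairs the levels were set beside those in the remaining germ cells, which met no *Psma8*, *Prdm9* or *Stra8* gate. *Pdha1*, a subunit of pyruvate dehydrogenase, stood at 0.777 and 1.95 in members and its copy *Pdha2* at 378 and 292, and the copy made up 99.8% and 99.3% of the pair's UMIs in members against 49.1% and 49.6% in the remaining germ cells. *Cetn1* made up 98.7% and 96.5% of its pair with *Cetn2*, against 5.30% and 3.09%.

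Ribosomal pairs gave the same order with more left of the X-linked gene. *Rpl10* stood at 30.6 and 88.5 and *Rpl10l* at 267 and 258, and the copy made up 89.7% and 74.5% of the pair in members against 6.18% and 5.85% in the remaining germ cells. *Rpl39l* made up 95.4% and 90.3% of its pair with *Rpl39*, against 34.0% and 35.3%. In the pair of *Rpl36a* and *Rpl36al* the copy was not called, at 555 and 573 in members, and the X-linked gene was lower at 37.2 and 99.4. In the RNA-binding pair, *Rbmxl2* stood at 630 and 606 and *Rbmx* at 2.01 and 2.82. *Utp14b*, the copy of a ribosome biogenesis gene, was not called and stood at 28.1 and 30.2 against 42.5 and 43.5 in the remaining germ cells. *G6pd2* was at 0 in all groups shown. Copies are near in sequence to their parents, and reads that could not be assigned to 1 gene are not in these counts.

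**Figure D4:**
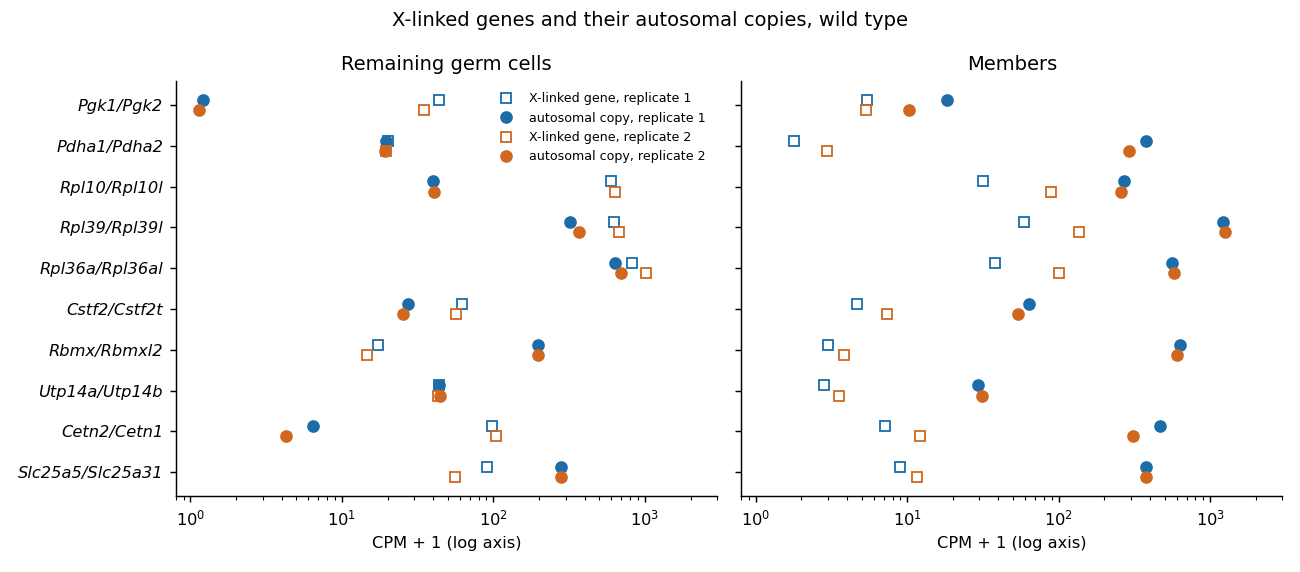
Levels of 10 X-linked genes (open squares) and their autosomal copies (filled circles) in CPM with 1 added (log axis), in the remaining germ cells (left) and in members (right) of each wild-type library. In members every X-linked gene lies below its copy, whereas in the remaining germ cells *Pgk1*, *Pdha1* (by a small margin), *Rpl10*, *Rpl39*, *Rpl36a*, *Cstf2* and *Cetn2* lie above theirs.

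The members also varied among themselves. They were split within each library into tertiles of *Fabp9*, 116 cells each in replicate 1 and 160, 160 and 159 in replicate 2, a split that uses a gate gene and is given as a description. The median depth differed between tertiles, at 22710, 46757.5 and 48300.5 UMIs in replicate 1 and 25571, 37627.5 and 46325 in replicate 2. The X-linked share was 0.461, 0.230 and 0.114% in replicate 1 and 0.676, 0.399 and 0.148% in replicate 2, from the lowest tertile to the highest. The mitochondrial share was lower in the highest tertile too, at 3.07% and 3.69% against 5.17% and 5.75% in the lowest. Markers of other cells moved with the tertiles as well. The 5 peritubular myoid genes summed to 102 and 219 CPM in the lowest tertile and 21.8 and 54.3 in the highest. The 6 Sertoli genes summed to 68.4 and 155 against 36.8 and 18.4. In the middle tertile the Sertoli sum was 111 and 105, so in replicate 1 it was highest there. The early meiotic gene *Stra8* stood at 56.2 and 46.5 against 9.47 and 13.5. The part of such RNA in the differences between tertiles was not tested.

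Between the highest and the lowest tertile, 1062 of 8204 genes were higher (12.9%) and 824 were lower (10.0%) by the same rule. Of 120 X-linked genes 112 were lower and 1 was higher. Among genes at 100 CPM or more in the highest tertile of both libraries, the 10 with the highest ratios, named after their values were seen, were *Plaat5*, *Cmtm2b*, *Rbakdn*, *Cmtm2a*, *Stpg4*, *Prok2*, *Pgam2*, *Fbp1*, *Ggnbp1* and *1700108J01Rik*. *Rbakdn* stood at 16.003, 558 and 1252 CPM over the tertiles of replicate 1 and at 13.9, 102 and 853 over those of replicate 2. *Crisp2* stood at 61.8, 374 and 765 and at 58.1, 138 and 598. *Ldha* stood at 24.2, 329 and 648 and at 19.7, 110 and 466.

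The gate gene *Piwil1* followed the same order, at 236, 1034 and 1264 in replicate 1 and 170, 535 and 1032 in replicate 2. *Tesmin* hardly varied, at 649, 780 and 787 and at 535, 632 and 639, and *Mybl1* stood at 165, 184 and 136 and at 156, 187 and 163. Among genes at 100 CPM or more in the lowest tertile of both libraries, the 10 with the lowest ratios were *Fmr1nb*, *Resf1*, *Rad51ap2*, *Rpl39*, *Hspa5*, *Rnaset2a*, *Tex15*, *Marcksl1*, *Btg3* and *Nrbp1*. *Hspa5* stood at 3071, 715 and 350 in replicate 1 and at 2692, 1108 and 420 in replicate 2. *Rad51ap2* stood at 314, 84.8 and 18.8 and at 321, 182 and 47.5. *Meiob*, a strand exchange factor, stood at 343, 157 and 71.5 and at 298, 244 and 105.

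**Figure D5:**
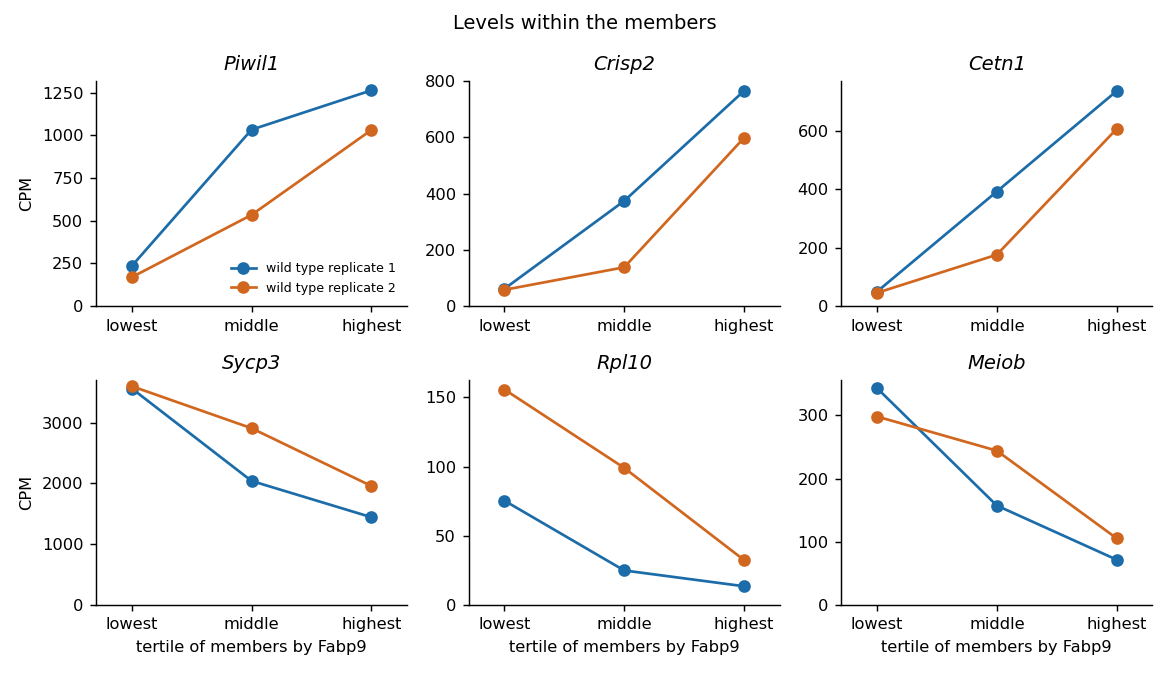
Levels in CPM of genes in the lowest, middle and highest tertile of *Fabp9* among members, with 1 line for each wild-type library. *Crisp2* runs from 61.8 to 765 and from 58.1 to 598 CPM, while *Sycp3* runs from 3561 to 1442 and from 3598 to 1957.

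No member, as defined by the *Fabp9* gate, was found in the *Meioc*-null libraries. The paper, by its own clustering, placed some *Meioc*-null cells in its pachytene group, so the count here holds for the gate only. There were 0 of 7550 cells in replicate 1, which allows a share of up to 0.0397% when a count of 0 is read as at most 3 counts, and 0 of 7214 cells in replicate 2, which allows up to 0.0416%. The upper limits of the 95% exact binomial interval were 0.0488% and 0.0511%. *Fabp9* reached 5 per 10000 UMIs in 2 and 5 *Meioc*-null cells, at a median of 1762.5 and 1949 UMIs, and these held at most 1 of the 5 other genes. All 5 other genes were found together in 6 and 6 *Meioc*-null cells against 509 and 492 wild-type cells. Psma8-high cells did occur, with 34 of 5958 (0.571%) and 21 of 5684 (0.369%) *Meioc*-null germ cells against 3.301% and 4.62% of wild-type germ cells. Their X-linked share was 3.06% and 3.26%, against 1.65% and 1.44% in wild-type Psma8-high cells, and *Fabp9* stood at 8.04 and 29.2 CPM in them, from 3 and 8 UMIs. In the somatic cells of the *Meioc*-null libraries *Fabp9* stood at 0.143 and 0.0821 CPM, against 20.1 and 6.80 in the wild-type libraries.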

How the data were processed

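Single-cell suspensions of P15 testes were profiled with 10x Genomics 3′ libraries. The authors aligned reads and counted UMIs with Cell Ranger 4.0.0 against the mm10 (GRCm38) reference, and deposited raw UMI counts per gene and barcode, 1 matrix per pup. Their own cell filters (mitochondrial share, detected features and a doublet score) were applied in Seurat after these matrices, and no cell annotation was used here.

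From the deposited counts, barcodes with more than 1000 detected genes and under 10% mitochondrial UMIs were kept. The gate and the cell groups were applied to raw UMIs, and UMIs were summed per library and group and scaled to a total of 1000000 UMIs (CPM). Genes with a mean of at least 10 CPM in either group were compared as log2((members + 1)/(other + 1)), and a gene was called at a log2 ratio of 1 or more, or −1 or less, in both wild-type libraries. Each comparison was made within a library and hence within a batch. The 6 gate genes were left out of all counts of genes. *Ddx4*, *Dazl* and *Psma8*, which chose the comparison groups, were kept in them. The named genes were the gate genes, the 12 highest and 10 lowest ratios to the other germ cells (the library nearer to 0 counted) with at least 100 CPM in the higher group, pairs of X-linked and autosomal genes, *Hspa2*, *Meioc* and up to 6 genes of each list; the 8 highest and 8 lowest against Psma8-high cells and other list genes named for their role were chosen after their values were seen. In all, 29 lists of 351 entries, the gate genes included, were examined by counts and medians. The members, lists and groups were chosen with earlier results of these data known. Promoter windows came from RefSeq on GRCm38.p6 and were matched by symbol, Ensembl ID or synonym, which found 1231 of 1517, 1828 of 2246 and 4243 of 5141 protein-coding genes called higher, lower or neither.

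Doublets were scored with Scrublet in scanpy 1.11.5 and taken out only as an alternative, at 0.8% per 1000 barcodes, because the threshold of the caller itself marked 1.94 to 4.58% of cells. TMM factors were computed with edgeR 4.0.16 as another scaling, and other gates, filters and added values were tried. The script for calling genes was tested on simulated data. The 4 matrices held 32285 genes.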

Additional observations from a re-analysis of the deposited data

How the results depend on the processing

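Of 87 alternatives run over all results, 81 stayed within the spread between libraries (for the cells and shares) or within 1.5 times the count (for the genes), and 6 did not. With either library left out, the X-linked share could not fall outside that spread. The number of members per library, 413.5 on average, was 257.5 with a mitochondrial limit of 5%. Genes lower than in other germ cells numbered 4267 in place of 2627, and genes lower than in Psma8-positive cells 3960 in place of 2348, both with a minimum of 1 CPM and with no minimum, where more genes were compared. Genes lower than in Psma8-high cells, 790 with both libraries, numbered 1560 without wild-type replicate 2, and the cause was not tested. That comparison and its alternatives were added after the data were seen. No called gene changed direction under any of the alternatives tried for these counts. For other added values, other minimum levels and single libraries this was fixed in advance by the rule. Under TMM scaling the ratios shifted by too little for a called gene to reach the opposite limit.

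Without 1 or the other library, the counts ranged from 1686 to 1916 genes higher and 2592 to 3136 lower than in other germ cells, 1440 to 1784 higher and 2260 to 2979 lower than in Psma8-positive cells, and 1162 to 1358 higher and 788 to 1560 lower than in Psma8-high cells. The X-linked share of UMIs in members ranged from 0.230 to 0.377% over the libraries, and from 0.176 to 0.238% without the cells marked as doublets (mean 0.207%). No paired test was run, because the members were chosen by measured values. Members and comparison cells came from both wild-type libraries, and each ratio was taken within a library. Members were deeper than all comparison groups, so a gene near 10 CPM rests on fewer UMIs in Psma8-high cells.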
